A study of Mus musculus with 5 samples.

Results

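The second day of osteoclast formation was examined here as the difference between the array of day 2 and the array of day 1, 2 of the 5 samples of a mouse time course. Osteoclasts are the multinucleated cells that resorb bone, and in culture they form by fusion of macrophages. Wild-type bone marrow cells from 10-week-old mice were cultured on plastic, and the macrophages grown from them received 20 ng/ml of M-CSF and 30 ng/ml of RANKL for up to 5 days. M-CSF is the growth factor that keeps macrophages alive and RANKL is the cytokine that drives osteoclast formation. Every culture carried the same genotype, and the sample records list both factors for all 5 days. Day 0, the start of the day count, was sampled as macrophages. Days 1 and 2 (like day 3) were sampled during differentiation, and day 5 as cells labelled mature osteoclasts. There was 1 array per day, and no culture kept without RANKL was analysed here, so time in culture and RANKL cannot be told apart. Whether marrow of several mice was pooled is not given in the sources used here.

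For each gene the log2 value at day 1 was subtracted from the value at day 2. The comparison covered the 12049 of 22180 genes with a mean level of at least 4.89 across the 5 arrays, which are called measured. Just inside that limit lay Ooep, an oocyte gene, at 4.887082, and just outside it Neu4, a sialidase, at 4.886761. A gene was counted when it differed by 1 or more on the log2 scale, which is 2-fold. There were no replicates, so the differences are descriptions of 2 arrays with no test and no p-value. As a yardstick, the 500 genes with 2 measured rows each gave the difference of day 2 from day 1 in both rows, and these disagreed with an SD of 0.38, or 0.27 for 1 row. That spread covers the measurement and not the variation between cultures. Precision is limited throughout by the number of arrays.

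RANKL binds its receptor RANK on macrophages and, together with receptors that signal through ITAM adaptors, switches on NFATc1, the transcription factor that directs osteoclast genes. The cell then builds a ring of podosomes anchored by the integrin αvβ3, fuses with its neighbours, and secretes acid through a V-type proton pump and collagen-cutting enzymes such as cathepsin K onto bone. Macrophage defence genes and cell division are usually reduced along the way.

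At day 2 the levels of 297 measured genes (2.46%) exceeded those at day 1 by 2-fold or more, and 67 (0.556%) were lower by as much, so 81.6% of the counted genes were higher. The larger the difference asked for, the more uneven the split became, with 124 higher and 8 lower at 3-fold, 70 and 1 at 4-fold, and 19 and 0 at 8-fold. At 1.5-fold it was 740 against 555. Over all measured genes the median difference was 0.00 and the quartiles were -0.20 and 0.16. More genes lay below 0 (5767) than above it (5152), and 1130 held exactly the same value on both arrays, which the median polish behind these values can produce. The higher genes formed a long upper tail. The centre near 0 is set by the normalisation of the arrays and is no result. The threshold fell between Grk3 (1.000025) and Nckap1 (0.999833) for higher genes and between Slc39a4 (-1.005543) and Snhg15 (-0.997817) for lower ones. The level filter uses the mean of all 5 arrays, so a gene low at days 0 and 1 passes it if it is high later.

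**Figure D1:**
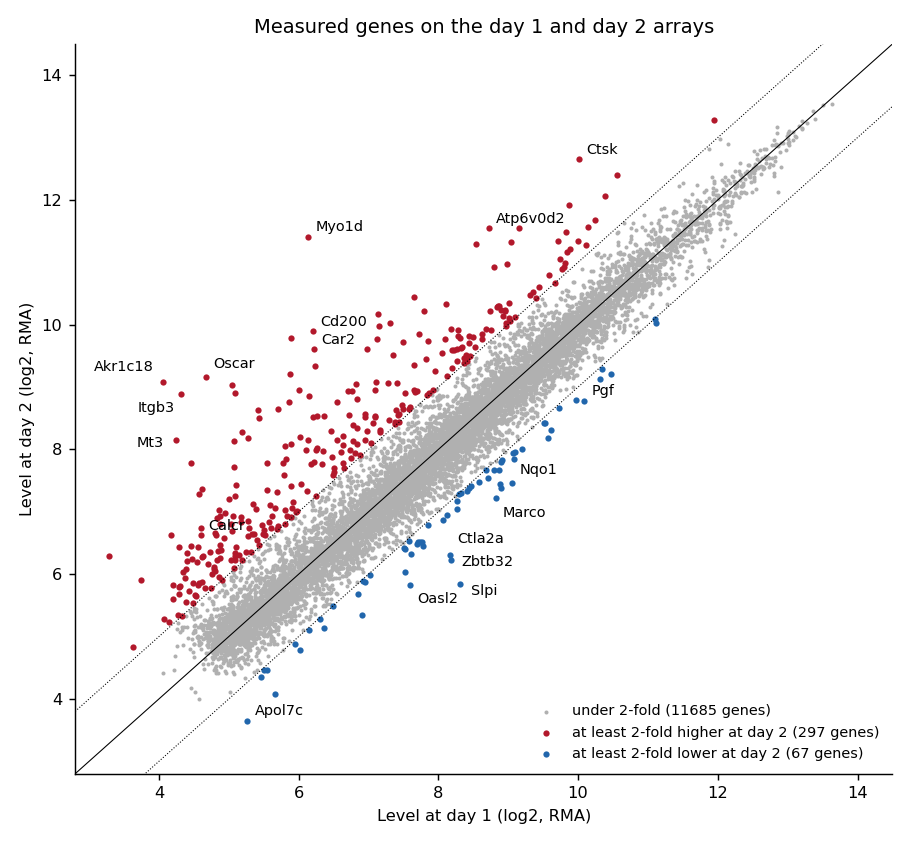
Each point is 1 of the 12049 measured genes, with its log2 level at day 1 on the horizontal axis and at day 2 on the vertical axis; the solid line marks equal levels and the dotted lines 2-fold. The 297 higher genes spread far above the upper dotted line, up to Myo1d, while the 67 lower genes stay close to the lower one.

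The other steps of the time course were split differently. From day 0 to day 1, 351 genes (2.91%) passed 2-fold upwards and 503 (4.17%) downwards, from day 2 to day 3 251 (2.08%) were higher and 471 (3.91%) lower, and from day 3 to day 5 19 (0.158%) were higher and 14 (0.116%) lower. Day 2 against day 1 was thus the only step but the last in which higher genes outnumbered lower ones. Neighbouring steps share an array, so these counts are not independent of each other, and without replicates the difference between steps was not tested. Array medians over measured genes lay between 7.59 and 7.66, with 7.66 at both day 1 and day 2, and no array stood apart by its distribution, which quantile normalisation makes nearly equal.

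**Figure D2:**
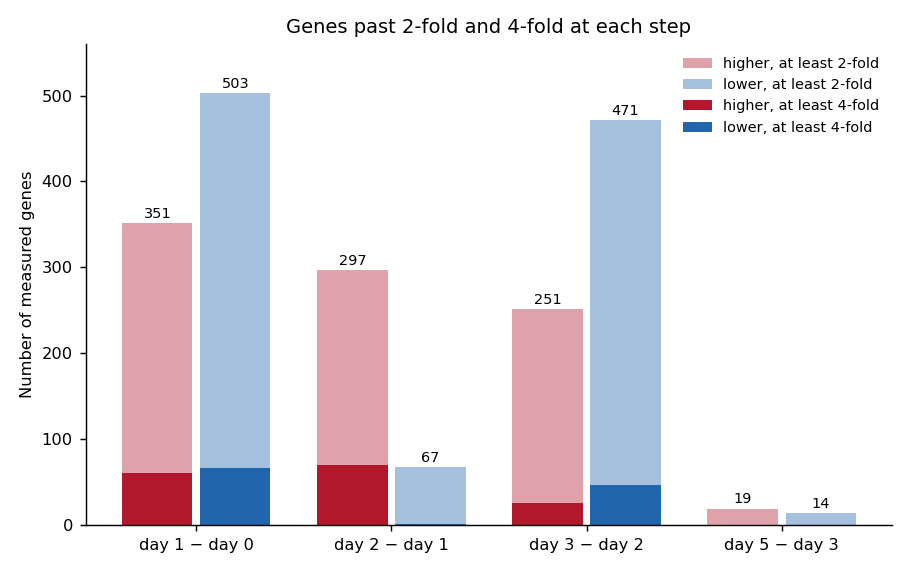
Bars give the number of measured genes (vertical axis, from 0) that were higher (red) or lower (blue) by at least 2-fold (pale) and at least 4-fold (dark) at each step from a sampled day to the next. The step from day 1 to day 2 has 297 higher against 67 lower genes, and the steps before and after it have more lower than higher genes.

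The 15 largest increments belonged to genes below the median of measured genes (7.66) at days 0 and 1. Myo1d, an unconventional myosin that links membranes to actin, had levels of 6.73, 6.14, 11.41, 12.55 and 12.39 at days 0, 1, 2, 3 and 5. Its difference was 5.27, or 38.7-fold. Akr1c18, an aldo-keto reductase that inactivates progesterone, stood at 4.50, 4.06, 9.08, 11.35 and 11.23 (5.02, 32.5-fold). Both genes lay below that median on the first pair of arrays, were already within 2.27 of their day 3 level at day 2, and were level from day 3 to day 5. Itgb3, the β3 chain of the osteoclast integrin, read 4.25, 4.32, 8.90, 10.47 and 10.37 (4.58, 23.9-fold). Oscar, a collagen-binding receptor that signals through an ITAM adaptor, read 4.88, 4.67, 9.15, 11.52 and 11.68 (4.48, 22.3-fold). These 4 genes are the 4 largest increments of the comparison. At day 1 Akr1c18, Itgb3 and Oscar lay below the filter level of 4.89, as did 5 of the 15 largest increments, and the table does not say whether such levels stand above background. Differences that start there tend to be compressed in RMA values, so these folds may be too small, and the order among the 4 is not firm. The 4 genes are also, with Slpi, the 5 marker genes listed for it, chosen with earlier results of these data known, so that their rank is a description.

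Slpi, the fifth marker, went the other way. This secreted inhibitor of leukocyte proteases had the largest decrement of all measured genes (-2.47, 5.52-fold lower), from 7.83 and 8.31 at days 0 and 1 to 5.84 at day 2, and stood at 7.17 and 7.46 at days 3 and 5. Its low level was thus a feature of the day 2 array, and it differed by -0.37 between day 5 and day 0. The labels place both cultures within differentiation and do not speak of commitment, and the term is not used further here.

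The remaining 11 of the 15 largest increments mixed known osteoclast genes with genes of other roles. The serotonin receptor Htr1b went from 5.04 to 9.03 (3.99), the metal-binding Mt3 from 4.24 to 8.15 (3.91), and the vesicular monoamine transporter Slc18a1 from 5.89 to 9.79 (3.90). Mst1r, the receptor tyrosine kinase for macrophage-stimulating protein, read 5.08 and 8.91 (3.83), and Cd200, an immunoregulatory surface glycoprotein, 6.20 and 9.90 (3.70). Carbonic anhydrase Car2, which makes the protons for acid secretion, read 6.21 and 9.61 (3.39), and the small GTPase Rab38 of lysosome-related organelles 5.87 and 9.21 (3.34). They were followed by Fjx1 (3.32), the ketone body enzyme Bdh1 (3.22), the T cell signalling adaptor Lat (3.11) and the sphingosine-1-phosphate transporter Spns2 (3.09). Between day 0 and day 1 Car2 had already gained 2.72, Cd200 2.15, Rab38 1.30, Slc18a1 1.21 and Mst1r 1.12. The others of the 11 differed by less than 2-fold in that earlier step, with Mt3 at -0.97. For Mt3 the sister genes Mt1 (9.42 and 9.59) and Mt2 (7.24 and 7.38) differed by 0.17 and 0.14, values chosen for comparison after they were seen. All 15 were at least 2-fold higher at day 5 than at day 0 as well, between 3.64 for Htr1b and 6.91 for Car2.

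**Figure D3:**
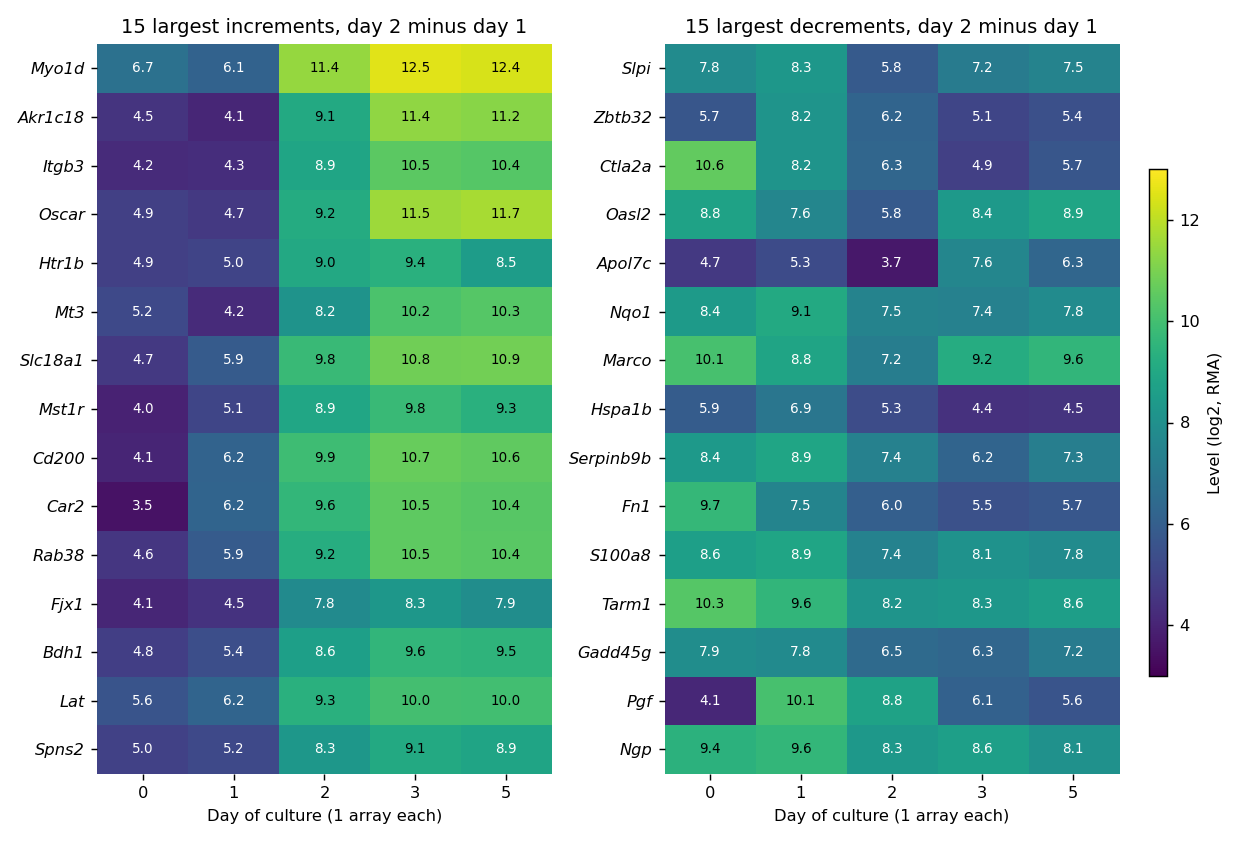
Rows are the 15 genes with the largest increments (left) and decrements (right) between day 1 and day 2, columns the 5 days, and each cell prints the log2 level that its colour encodes. The left-hand genes lie below 7.66, the median of measured genes, at days 0 and 1 and above it from day 2. Some of them, such as Car2 and Cd200, already gain between day 0 and day 1. Several right-hand genes, such as Slpi, Oasl2, Apol7c and Marco, have their lowest level at day 2.

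The arrays of days 0, 3 and 5 did not enter the difference between day 1 and day 2, but they did enter the level filter, which favours genes that are high later. Of the 297 higher genes, 251 (84.5%) stood 2-fold or more above day 0 at day 5, against 817 (6.78%) of all measured genes, 0 were lower, and 46 were within 2-fold. With the filter on the day 1 and day 2 arrays alone, a setting chosen after seeing the data, it was 247 of 291 (84.9%), with 0 lower, against 6.69% of the genes past that filter. The median difference of the 297 genes between those days was 2.05, with quartiles of 1.27 and 3.12. Day 3 against day 0 gave 255 higher and 0 lower. Between day 3 and day 5 0 of them were 2-fold higher and 1 was lower, with a median of -0.10. Of the 67 lower genes only 23 (34.3%) were at least 2-fold lower at day 5 than at day 0, against 791 (6.56%) of all measured genes, while 39 were within 2-fold and 5 were higher, and their median was -0.73. With the other filter it was 23 of 66 (34.8%), against 6.62%. Read the other way, the higher genes of day 2 made up 30.7% of the 817 genes higher at day 5, and the lower ones 2.91% of the 791 genes lower at day 5.

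Among the 46 higher genes that were not 2-fold higher at day 5, several had a low value at day 1 alone. These were named after their values were seen. The plasma membrane calcium pump Atp2b4 read 7.81, 5.43, 8.50, 8.95 and 8.40 over the 5 days (3.06 at day 2 against day 1, and 0.59 at day 5 against day 0). The TGF-β receptor chain Tgfbr2 read 9.36, 7.65, 9.35, 9.84 and 9.87, and the focal adhesion protein Tns1 7.73, 6.18, 7.77, 8.65 and 8.28. The latent TGF-β binding protein Ltbp1, by contrast, peaked at day 2, with 5.36, 6.83, 8.81, 6.81 and 6.14. The 5 lower genes that were higher at day 5 than at day 0, also chosen after their values were seen, were Ceacam10 (2.12), Apol7c (1.65), Pgf (1.46), Serinc2 (1.40) and the integrin chain Itgax (1.33).

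The machinery of bone resorption led all gene lists. Its 19 measured members included 11 higher, 0 lower and 8 within 2-fold, and their median difference was 1.17, beside 0.00 for all measured genes. For comparison with this and the later lists, 2.46% of all measured genes were higher and 0.556% lower. Of all measured genes 42.8% lay above 0 and 47.9% below it. Ctsk, the collagen-degrading cathepsin K, read 6.54, 10.02, 12.65, 13.11 and 13.29 over the 5 days (2.64, 6.21-fold). The tartrate-resistant phosphatase Acp5 read 7.10, 10.56, 12.39, 12.76 and 12.86 (1.83) and the gelatinase Mmp9 8.05, 11.94, 13.29, 13.66 and 13.64 (1.34). These 3 had gained more between day 0 and day 1 than they did in this step, unlike Itgb3 and Oscar, which were level there (0.07 and -0.20). The sodium-proton exchanger Slc9b2 read 4.35, 7.14, 10.17, 10.91 and 11.01 (3.03). Beyond the leading 3 of each list, members are named here because they passed 2-fold, after their values were seen: in this list Mmp14, a membrane-bound collagenase (2.14), the bicarbonate-chloride exchanger Slc4a2 (1.43), the vesicle trafficking genes Plekhm1 (1.18) and Snx10 (1.17), and the chloride-proton exchanger Clcn7 (1.13). The cathepsin Ctsb, present in most macrophages, was at -0.11 and had the lowest difference of the list.

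V-ATPase subunits, which form the proton pump, had 4 of 17 members higher, 0 lower and 13 within 2-fold (median 0.49), and 15 of the 17 lay above 0. Atp6v0d2, the subunit isoform characteristic of osteoclasts, stood at 6.71, 8.72, 11.55, 12.21 and 12.13 (2.83). The V1-sector subunits Atp6v1d (1.42), Atp6v1a (1.16) and Atp6v1h (1.01) followed, and Atp6v0a1 was at -0.01. Calcr, the receptor for calcitonin and a late osteoclast gene, was at 4.43, 4.61, 6.62, 10.13 and 10.54. It was thus 2.02 higher at day 2, while the next step, which shares the day 2 array, added 3.51.

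Genes of integrins, podosomes and actin split into a few large increments and a majority near 0. Of 30 measured, 7 were higher, 1 lower and 22 within 2-fold, with a median of 0.20 and a mean of 0.69. Beside Itgb3, the integrin chain Itga2 read 4.55, 6.0, 8.96, 9.97 and 9.79 (2.96) and the podosome protein cortactin, Cttn, 4.97, 5.71, 8.65, 9.12 and 8.83 (2.94). The actin-severing Scin (2.82), the adhesion plaque protein vinculin, Vcl (2.22), the GTPase Rhou (1.80) and the kinase Src (1.10), which organises podosomes, were the others. Itgax was the lower one (-1.12). It encodes the αX chain of leukocyte integrins, and stood at 7.57, 9.07, 7.95, 8.37 and 8.89. Of the 13 unconventional myosins, Myo1d alone passed 2-fold, 12 were within 2-fold and the median was 0.25 (mean 0.63). Next came Myo10 (0.77), which builds filopodia, and Myo1e (0.65), and the lowest was Myo1g (-0.27).

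Fusion genes behaved in the same uneven way, with 3 of 16 higher, 0 lower and 13 within 2-fold, a median of -0.14 and a mean of 0.23. The transmembrane proteins required for fusion, Dcstamp (7.27, 9.87, 11.91, 12.43 and 12.64, a difference of 2.04) and Ocstamp (4.04, 6.97, 9.61, 10.13 and 10.05, a difference of 2.64), were 2 of the higher ones. Sh3pxd2a, a podosome scaffold, was the other (1.40), and the tetraspanin Cd81 had the lowest difference (-0.74).

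Upstream signalling genes moved little. In the ITAM costimulation list Oscar was higher, 0 of 20 were lower and 19 were within 2-fold (median 0.04), with the sialic acid receptor Siglec15 just short of 2-fold (0.99, from 5.59 to 6.58), the adaptor Lcp2 at 0.70 and the receptor Trem2 at -0.70. Of 20 genes of RANK and NF-kB signalling 0 were higher, 0 lower and 20 within 2-fold (median 0.11), led by the adaptors Traf5 (0.95), Traf6 (0.86) and Gab2 (0.70), with Traf2 at -0.46. RANK itself, Tnfrsf11a, read 8.97, 8.79, 8.93, 9.22 and 9.08 (0.14), and the M-CSF receptor Csf1r 12.50, 11.71, 12, 12.34 and 12.36 (0.30). Nfatc1 read 7.64, 9.14, 9.98, 9.88 and 9.41, a difference of 0.83 that did not reach 2-fold.

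Among 29 osteoclast transcription factors, 2 were higher, 0 lower and 27 within 2-fold (median 0.04). The higher ones were Ppargc1b, a coactivator of mitochondrial genes, at 6.70, 8.29, 9.92, 10.26 and 9.97 (1.63), and the AP-1 family member Fosl2 at 9.18, 10.24, 11.68, 11.79 and 11.48 (1.44). The lowest was Pparg (-0.68). Of 21 negative regulators of osteoclast formation 0 were higher, 0 lower and 21 within 2-fold, with a median of -0.03 that turned to 0.04 under another of the settings tried. Socs3, an inhibitor of cytokine signalling, was at -0.94 (-0.43 over its rows), Egr2 at -0.86, and the interferon regulatory factor Irf8 at -0.58. The calcineurin regulator Rcan1, a target of NFAT, was at 0.83. It also led the 19 calcium and calcineurin genes, of which 0 were higher, 0 lower and 19 within 2-fold (median 0.13).

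The promoter of Oscar is shown because Oscar had one of the 4 largest increments and OSCAR is a known NFATc1 target. It is the 250 bases before the gene's start, on the gene's minus strand, at chr7:3616158-3616407 of GRCm38.p6 (RefSeq), 5′ to 3′, with capitals marking the NFAT core TGGAAA read on either strand.
Oscar: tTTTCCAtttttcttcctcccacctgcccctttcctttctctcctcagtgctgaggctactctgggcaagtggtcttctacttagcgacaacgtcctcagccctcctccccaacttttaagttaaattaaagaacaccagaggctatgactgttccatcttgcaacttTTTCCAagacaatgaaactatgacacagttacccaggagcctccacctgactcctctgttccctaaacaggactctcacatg
The core occurred 2 times in this stretch. Over the 250 bases before starts it occurred on either strand in 22.9% of the 236 higher genes with a sequence (54 genes), in 16.7% of 48 lower genes, in 17.6% of 9534 measured genes and in 18.6% of all 32851 starts in the table. For the AP-1 site TGANTCA the shares were 9.32% of the higher genes (22 genes), 12.5% of the lower genes (6 genes), 5.72% of measured genes and 6.75% of all starts. CACGTG, the E-box of the MITF kind, had 7.63% of the higher genes and 9.85% of measured genes. The motifs can share bases where they meet, and a match describes the sequence only. Itgb3 and Myo1d have no entry in the table.

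Mitochondrial fuel genes were shifted by small amounts in one direction. Of the 22 tricarboxylic acid cycle genes 21 lay above 0 and 1 at 0 (median 0.43), though 0 were higher or lower by 2-fold. Among all measured genes 42.8% lay above 0. The pyruvate dehydrogenase subunits Pdhb (10.29, 10.75, 11.55, 12.02 and 11.89, a difference of 0.80) and Pdha1 (0.76) and the isocitrate dehydrogenase subunit Idh3a (0.75) led. Oxidative phosphorylation had 38 of 39 nuclear-encoded genes above 0, 39 within 2-fold, and a median of 0.17, with the respiratory chain subunits Ndufs1 (0.59), Uqcrc2 (0.58) and Uqcrfs1 (0.55) at the top. That median is smaller than the yardstick of 0.27, but the yardstick is the spread of 1 row and not the error of a median over 39 genes. The list's median was 0.27 from day 0 to day 1 and 0.27 from day 2 to day 3. The tricarboxylic acid cycle list had 0.34 and 0.33 in those steps, so neither shift was particular to day 2 against day 1. Mitochondrial biogenesis genes included 2 of 22 higher, Ppargc1b and the mitochondrial fusion protein Mfn2 (1.04), with 0 lower, 20 within 2-fold and a median of 0.14, and Nrf1 was the lowest (-0.62). Of 19 glycolysis genes Ldhb, a lactate dehydrogenase subunit, was higher (6.53, 5.89, 8.09, 9.95 and 10.24, a difference of 2.20), 0 were lower and 18 within 2-fold (median -0.03). The lactate exporter Slc16a3 was at -0.73 and the hexokinase Hk1 at 0.61.

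The iron list held 2 higher genes, 1 lower gene and 12 within 2-fold among its 15 (median 0.27). The metalloreductase Steap4 went from 4.84 to 6.90 (2.07) and the transferrin receptor Tfrc from 8.49 to 9.80 (1.31), both genes of iron uptake. The phagosomal metal exporter Slc11a1 went from 11.10 to 10.08 (-1.01). In the list of lysosomal hydrolases and membrane proteins 2 of 31 were higher, 0 lower and 29 within 2-fold, with a median of 0.00 whose sign depended on the scaling. The sulfatase Arsb was at 2.39 in its brightest row and 2.78 in the other, the sugar-phosphate transporter Slc37a2 at 1.65, the glucosidase Gaa at 0.81 and the protease Ctsh at -0.57. Aldo-keto reductases and eicosanoid enzymes held Akr1c18 as the single higher member of 19, with 0 lower and 18 within 2-fold (median -0.08), and the leukotriene pathway gene Alox5ap and prostaglandin E synthase Ptges were both at -0.79.

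Secreted factors and their receptors gave a small number of higher genes. Of 16 genes for osteoclast-derived signals to bone 2 were higher, 0 lower and 14 within 2-fold (median 0.23). The cytokine Lif read 5.27, 5.10, 7.43, 7.17 and 7.21 (2.33). Ephrin-B2, Efnb2, which signals to osteoblasts, read 4.43, 4.87, 6.94, 7.92 and 8.16 (2.07), and the growth factor Igf1 was at -0.97. Among 25 cytokines and chemokines 2 were higher, 0 lower and 23 within 2-fold (median -0.15), Lif and Il10 (1.51, but -0.21 at day 5 against day 0), and Pf4 was lowest (-0.83). In 25 cytokine and growth factor receptors 4 were higher, 0 lower and 21 within 2-fold (median -0.08, mean 0.23): the TGF-β receptor chains Tgfbr1 (8.66, 7.85, 9.75, 10.13 and 10.15, a difference of 1.89) and Tgfbr2 (1.70), and the chemokine receptors Ccr3 (1.29) and Ccr1 (1.15). The interleukin 6 receptor chain Il6ra was at -0.52. Of 18 semaphorin and plexin genes 4 were higher (22.2%, against 2.46% of all measured genes) and 0 lower (median 0.04), namely Sema7a (2.22), Sema3d (2.14), Plxna2 (1.12) and Plxnb3 (1.10).

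**Figure D4:**
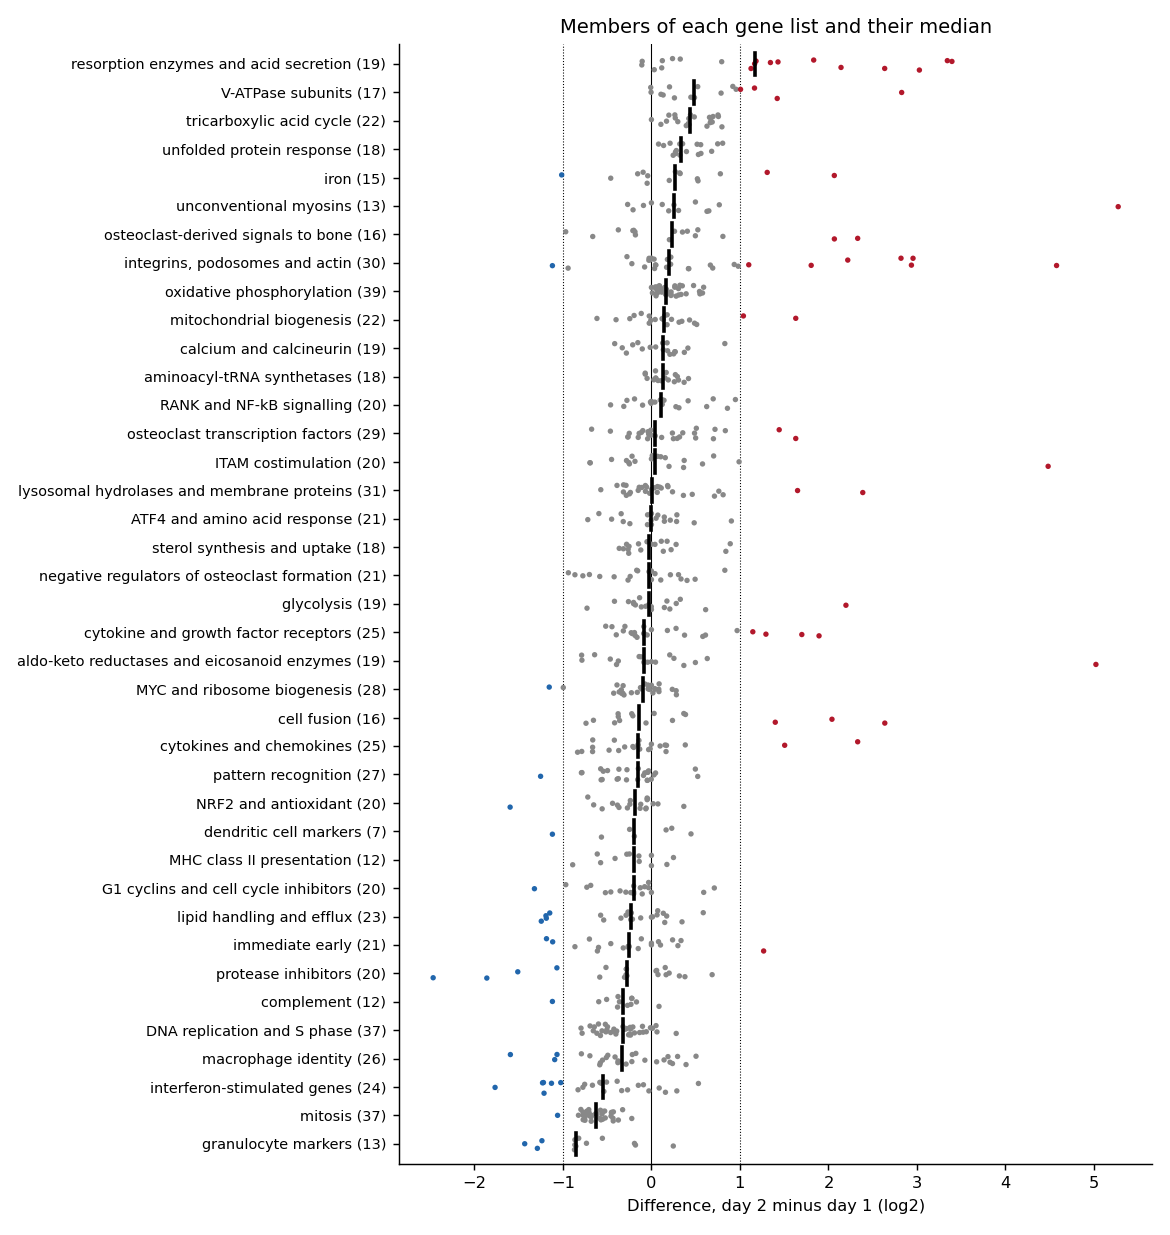
Each point is a measured member of a list with at least 7 of them, spread vertically for sight only and placed by its day 2 minus day 1 difference on the log2 scale (horizontal axis), with red and blue for at least 2-fold higher and lower, a black bar for the list's median and the number of measured members in brackets. Lists run from resorption enzymes at the top (median 1.17) to granulocyte markers at the bottom (-0.85), and most medians lie within 0.5 of 0.

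The largest decrements formed a mixed group. After Slpi came Zbtb32, a transcriptional repressor of lymphocytes, which peaked at day 1 (5.68, 8.17, 6.22, 5.10 and 5.44, a difference of -1.95). Ctla2a, a cathepsin inhibitor, was lower at each sampled day up to day 3 (10.60, 8.16, 6.30, 4.88 and 5.69, a difference of -1.86). The oligoadenylate synthetase-like gene Oasl2 read 8.77, 7.60, 5.83, 8.39 and 8.87 (-1.77). Several shapes thus stood side by side, a peak at day 1, a descent since day 0 and a trough at day 2. Apol7c (-1.61), an apolipoprotein L gene, and the scavenger receptor Marco (10.08, 8.82, 7.23, 9.20 and 9.57, a difference of -1.59) had troughs at day 2. The quinone reductase Nqo1 (-1.60), the heat shock gene Hspa1b (-1.57), placental growth factor Pgf (4.13, 10.09, 8.78, 6.10 and 5.59, a difference of -1.31) and the serpin Serpinb9b (-1.51) had their highest level at day 1. Serpinb9b was at -0.69 when its rows were averaged. Fibronectin, Fn1 (-1.49), descended from day 0 to day 3. The others of the 15 were the inflammatory protein S100a8 (-1.43), the activating receptor Tarm1 (-1.39), the stress gene Gadd45g (-1.32) and the neutrophil granule protein Ngp (-1.29). Slpi, Ctla2a, Serpinb9b and Wfdc17 (-1.07) were the 4 lower members of the 20 protease inhibitors, of which 0 were higher and 16 within 2-fold (median -0.28). This list holds Cstf1, a factor of messenger RNA 3′ end processing that is no protease inhibitor, and without it, a choice made after seeing the data, 4 of 19 were lower (median -0.28). In the same list the metalloproteinase inhibitor Timp2 was at 0.69.

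Interferon-stimulated genes, which encode antiviral proteins, were lower at day 2 as a list. Of 24 measured, 6 were at least 2-fold lower, 0 higher and 18 within 2-fold, with a median of -0.55, and 20 lay below 0 (47.9% of all measured genes did). Beside Oasl2 these were Usp18, which removes ISG15 from proteins (6.53, 6.37, 5.14, 7.01 and 7.48, a difference of -1.23), Oas3 (8.08, 7.74, 6.52, 7.67 and 8.26, a difference of -1.22), Irf7 (-1.21), Isg15 (7.65, 7.52, 6.40, 7.72 and 8.10, a difference of -1.13) and Oas2 (-1.02). In each of these genes the day 2 value was the lowest of the 5 arrays. Members of the list did not all share this, as Ifit2 was at 0.53, Ifit3 at 0.29 and Ifit1 at -0.09. All 6 measured OAS family genes lay below 0, 4 of them by 2-fold or more (median -1.02). The day 2 array held the lowest value of the 5 in 19 of the 24 genes, against 15.1% of all measured genes. Relative to day 1 the list's median was 0.43 at day 0, -0.55 at day 2, 0.31 at day 3 and 0.61 at day 5. The result therefore rests on 1 array, and its part in the result was not tested.

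Promoter stretches of 4 list members are shown because Isg15 and Oas3 were at least 2-fold lower while Ifit1 and Ifit3 were not. Each is 160 bases from within the 250 bases before the start, 5′ to 3′ on the gene's strand, from RefSeq with GRCm38.p6, and capitals mark GAAANNGAA, the core of the interferon response element, read on either strand. They lie at chr4:156200819-156200978 on the minus strand for Isg15, chr5:120777660-120777819 minus for Oas3, chr19:34640729-34640888 plus for Ifit1 and chr19:34583369-34583528 plus for Ifit3.
Isg15: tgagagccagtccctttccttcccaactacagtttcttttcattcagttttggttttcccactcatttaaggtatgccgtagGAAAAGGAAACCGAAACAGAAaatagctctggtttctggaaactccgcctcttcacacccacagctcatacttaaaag
Oas3: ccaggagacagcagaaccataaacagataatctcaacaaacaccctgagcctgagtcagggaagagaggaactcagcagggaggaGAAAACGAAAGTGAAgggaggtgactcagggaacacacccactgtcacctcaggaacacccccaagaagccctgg
Ifit1: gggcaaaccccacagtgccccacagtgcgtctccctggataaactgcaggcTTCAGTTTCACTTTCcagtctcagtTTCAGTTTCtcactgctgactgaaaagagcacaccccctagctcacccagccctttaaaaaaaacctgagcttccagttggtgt
Ifit3: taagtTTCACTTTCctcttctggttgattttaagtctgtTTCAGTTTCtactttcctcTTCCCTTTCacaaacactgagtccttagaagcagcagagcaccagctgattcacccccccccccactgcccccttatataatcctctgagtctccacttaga
Isg15, Ifit1 and Ifit3 hold 3 matches each, some of which overlap, and Oas3 holds 2. The core was found in 9 of the 19 list members with a sequence (47.4%), in 7.36% of measured genes, in 7.13% of all starts, in 14.6% of the lower genes (7 of 48) and in 7.20% of the higher genes. Among the 4 genes shown, those with and without a 2-fold difference at day 2 thus carried the same core. This did not hold for every lower member of the list. Of the 6 that were at least 2-fold lower, 4 had a sequence, and the core was found in 2 of these. Whether the core goes with the difference was not tested.

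Macrophage defence genes were lower by smaller amounts. The macrophage identity list of 26 held 3 lower genes, 0 higher and 23 within 2-fold (median -0.33): Marco, the toll-like receptor partner Ly86 (10.21, 8.27, 7.17, 8.01 and 8.71, a difference of -1.09) and the receptor kinase Axl (-1.07), with the Fc receptor Fcgr4 highest (0.50). The general macrophage markers Cd68 (12.61 and 12.80 at days 1 and 2) and Lyz2 (12.14 and 11.77) were abundant on both arrays. So were Itgam (11.70 and 11.48) and Adgre1 (10.69 and 10.18). Not all members of the list were. The Fc receptor Fcgr1 read 10.75 at day 0, but 7.14 and 6.57 at days 1 and 2, below the median of measured genes (7.66). Mertk (7.24 and 7.45), Ccr2 (5.58 and 5.36) and Cd163 (5.23 and 5.29) also lay below it, while Mrc1 (9.61 and 9.12) lay above. These 5 were named after their values were seen. Pattern recognition receptors had 23 of 27 below 0, with 1 lower, the C-type lectin Clec4n (10.94, 10.47, 9.21, 10.79 and 11.55, a difference of -1.25), 0 higher and 26 within 2-fold (median -0.16). The lipopolysaccharide coreceptor Cd14 was at -0.79, the lectin Clec4d at -0.78 and Tlr1 at 0.52. In the complement list 11 of 12 lay below 0, with Itgax lower, 0 higher and 11 within 2-fold (median -0.32), and Cfp at -0.60, C1qb at -0.51 and Cfb at 0.09. MHC class II presentation had 0 of 12 higher, 0 lower and 12 within 2-fold (median -0.19), with the costimulatory Cd80 at -0.89, H2-Ab1 at -0.61, Cd40 at -0.57 and H2-DMa at 0.25.

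Lipid handling and efflux had 4 lower genes of 23, with 0 higher and 19 within 2-fold (median -0.23). These were the desaturases Scd1 (-1.24) and Fads2 (11.20, 9.19, 8.0, 6.79 and 7.16, a difference of -1.19), the apolipoprotein Apoe (8.39, 7.71, 6.52, 7.36 and 7.86, a difference of -1.19) and the fatty acid binding protein Fabp4 (-1.15), while the cholesterol exporter Abca1 was at 0.59. Sterol synthesis and uptake had 0 of 18 higher, 0 lower and 18 within 2-fold (median -0.02), with Insig1 at 0.89, Hmgcs1 at 0.84 and Msmo1 at -0.36. Of 20 NRF2 and antioxidant genes Nqo1 was lower, 0 were higher and 19 within 2-fold (median -0.18), with the cystine transporter Slc7a11 at -0.72, Gsta3 at -0.65 and Gss at 0.37. Immediate early genes had the orphan receptor Nr4a2 higher (1.27), Klf4 (-1.19) and Dusp5 (-1.12) lower and 18 of 21 within 2-fold (median -0.25).

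Granulocyte markers had the lowest median of all lists (-0.85), with 3 of 13 lower, 0 higher and 10 within 2-fold, and 12 of the 13 below 0. S100a8 read 8.64, 8.88, 7.44, 8.11 and 7.84, Ngp 9.44, 9.61, 8.32, 8.65 and 8.06, and the neutrophil collagenase Mmp8 9.33, 9.08, 7.84, 8.80 and 8.82 (-1.24). Only the granulocyte factor Cebpe was above 0 (0.25). The defining neutrophil antigen Ly6g lay below the filter level throughout (4.76, 4.87, 4.48, 4.44 and 3.76). The mean difference of the 13 was -0.74. In bulk RNA, fewer granulocytes and less RNA per cell cannot be told apart. The part of such cells in the other decrements was not tested.

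Most marker genes of other cell types lay below the filter level, with exceptions. The platelet factor gene Pf4 stood at 12.23, 11.87, 11.03, 11.06 and 11.55 at days 0, 1, 2, 3 and 5, the platelet basic protein gene Ppbp at 8.89, 7.55, 7.12, 6.74 and 7.05, and the stromal proteoglycan gene Dcn at 5.20, 8.45, 8.44, 7.99 and 7.13. The part of other cells in the differences was not tested. Of the 7 dendritic cell markers Itgax was lower, 0 higher and 6 within 2-fold (median -0.19, but 0.17 over all rows of each gene), with Batf3 at -0.56 and Ccr7 at 0.45. Of the T and NK cell markers only 3 were measured (median 0.22). Cd5 was higher (5.67, 5.82, 7.84, 8.36 and 8.38, a difference of 2.02), Cd4 was at 0.22 and Nkg7 at 0.00, and Cd3d, Cd3e and Cd3g stayed between 3.16 and 4.49 on all arrays. B cell and erythroid markers came down to 1 measured gene each, Cd22 (-0.12) and Tal1 (0.11), both within 2-fold. So were the 3 of stromal cells (median -0.04, with Pdgfrb at -0.59, Col1a1 at -0.04 and Dcn at -0.01), the 4 of endothelium (median 0.10, with Vwf at 0.47, Cdh5 at -0.21 and Kdr at 0.21) and the 4 of megakaryocytes and mast cells (median -0.21, with Pf4 at -0.83, Ppbp at -0.43 and Gp9 at 0.00).

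Cell cycle genes were lower as groups, though hardly any passed 2-fold. All 37 measured mitosis genes lay below 0, with 1 lower, 0 higher and 36 within 2-fold and a median of -0.63. The ubiquitin-conjugating enzyme Ube2c read 8.70, 9.73, 8.67, 7.32 and 6.93 (-1.06), the kinesin Kif2c was at -0.82 and the checkpoint kinase Bub1 at -0.80. Relative to day 1 the list's median was -0.37 at day 0, -0.63 at day 2, -2.24 at day 3 and -2.12 at day 5, so that the larger part of the drop came after day 2. DNA replication genes had 33 of 37 below 0, with 0 higher, 0 lower and 37 within 2-fold (median -0.32), led by Gins3 (-0.78), Rfc5 (-0.69) and Pole (-0.80, but -0.44 over its rows), with Cdt1 at 0.28. Mki67, a proliferation marker, read 11.60, 11.77, 11.34, 9.68 and 9.61 (-0.43). Of 20 G1 cyclins and cell cycle inhibitors Gadd45g was lower, 0 were higher and 19 within 2-fold (median -0.20), with the cyclin Ccnd1 at -0.97, Cdkn1a at -0.73 and the inhibitor Cdkn2b at 0.71.

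The lists of ribosome biogenesis, protein folding, tRNA synthetases and the amino acid response together held 1 gene past 2-fold. MYC and ribosome biogenesis genes had 1 of 28 lower, ornithine decarboxylase Odc1 (7.48, 8.70, 7.55, 7.18 and 7.55, a difference of -1.15), 0 higher and 27 within 2-fold (median -0.09), with Mycl just short of 2-fold (-1.0), Myc at -0.43 and Rrp12 at 0.28. All 18 measured genes of the unfolded protein response, which handles misfolded protein in the endoplasmic reticulum, lay above 0, though 0 were 2-fold higher, 0 lower and 18 within 2-fold (median 0.34). Dnajb9 read 10.24, 9.43, 10.24, 10.77 and 10.63 (0.80), the chaperone Hspa5 9.80, 9.16, 9.91, 9.77 and 9.62 (0.75) and Herpud1 was at 0.68. In 14 of these 18 genes day 1 was the lowest of the 5 arrays, against 18.7% of all measured genes, and the list's median at day 0 was 0.54 above day 1, so the difference returned the genes toward their day 0 level. The part of the day 1 array in it was not tested. Aminoacyl-tRNA synthetases had 0 of 18 higher, 0 lower and 18 within 2-fold (median 0.13), with Gars at 0.42, Nars at 0.37, Iars at 0.31 and Qars at -0.07. ATF4 and amino acid response genes had 0 of 21 higher, 0 lower and 21 within 2-fold (median 0.00), with Vldlr at 0.90, Slc7a11 at -0.72 and Psat1 at -0.59. The 12 measured reference genes had 0 higher, 0 lower and 12 within 2-fold, and a median of 0.02 that turned negative when arrays were centred on them, with Sdha at 0.66, Hprt at -0.45 and Pgk1 at -0.42.

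**Figure D5:**
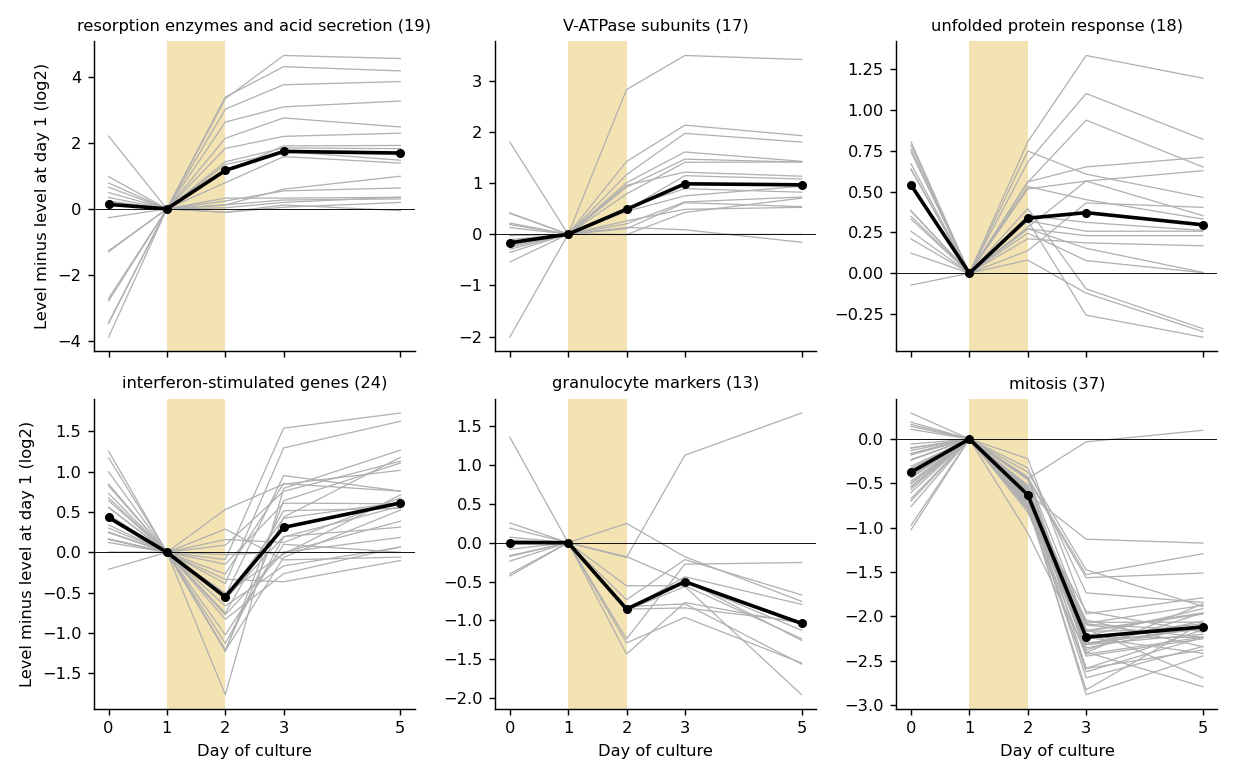
For 6 lists, grey lines give each measured member's log2 level minus its level at day 1 over days 0, 1, 2, 3 and 5, black lines the median of the members, and the shaded band the step from day 1 to day 2; vertical axes differ between panels. Resorption and V-ATPase genes are higher from day 2 on, the unfolded protein response is lowest at day 1, interferon-stimulated genes dip at day 2 (median -0.55), and mitosis genes reach -2.24 at day 3.

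Depth of signal bears on these values. The 297 higher genes had a median level of 6.24 at day 1 and 8.18 at day 2, and 62 of them (20.9%) were below the filter level at day 1. At such levels the background handling of RMA can compress differences, so folds may be understated. This was not tested, and whether such levels stand above background is not known. The 67 lower genes had medians of 8.27 and 7.05, with 7 below the filter level at day 2. Of the 7 higher genes with another measured row, 3 were at 1 or more in that row too, and 5 lay above 0. For Nos1ap (2.17) and Mid1ip1 (1.04) the other row was at 0.00, and for the lower gene Gemin6 (-1.09) it was at -0.62. Several genes passed 2-fold in a second row but not in the brightest. Mid1 was at -0.165 in its brightest row and 3.42 in the second, Capza1 at -0.04 and 1.15, and Gtf2a1 at 0.72 and 1.32. Pdk1 of the glycolysis list (0.28 and 1.33) and Atp6v1b2 of the V-ATPase list (0.96 and 1.10) were counted as within 2-fold. On the lower side H2-Q5 was at -0.05 and -1.48. Counts and ranks thus hold for the brightest rows only. These genes were named after their values were seen.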

How the data were processed

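Per the labels' protocols, biotinylated cDNA from 5 ng of total RNA was hybridised. The authors deposited log2 levels, which the submitters' processing notes credit to RMA (oligo, R 3.4.0). RMA brings arrays to nearly 1 distribution, so a change shared by all genes can be hidden. Summary level: not given in the sources used here, nor is the genome build. Of 41345 rows, 23521 named 1 gene in the platform annotation, 1814 several and 16010 none listed. Where a gene had more than 1 row (1082 genes), its brightest row stood for it. The level filter is the median of the row means. Differences were taken of values as deposited, and a size of 1 was counted.

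Named were the 15 largest increments and 15 largest decrements, the 5 markers, 13 fixed genes, and in each list the 3 members with the largest difference and the largest each way. Predicted and small RNA genes, olfactory receptors and receptor segments were counted but named only within lists. The members, the 46 lists (1021 entries, 75 of them without a row analysed here, 2 found under a synonym) and the families were chosen with earlier results of these data known. Alternatives covered scaling, rows, filters, size and list summary. Counting was tested on simulated data. Promoters come from RefSeq (GRCm38.p6). Python 3.11.15, numpy 2.4.6, pandas 2.3.3 and matplotlib 3.10.9 were used.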

Additional observations from a re-analysis of the deposited data

How the results depend on the processing

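Of the 519 values for named genes under other settings, 516 moved by less than the yardstick for 1 row (0.27) and 0 changed from one side of 0 to the other. Most of these values could not have moved that far. Centring on the median shifted all differences by 0.00 and centring on the reference genes by 0.04. Averaging rows leaves a gene with 1 row unchanged. The share that stayed is therefore no measure of robustness. Among genes with several rows, averaging moved Serpinb9b (-0.69), Socs3 (-0.43) and Pole (-0.44) by more than the yardstick. The count of higher genes was 181 with a filter at the 75th percentile, 740 at 1.5-fold and 124 at 3-fold. The count of lower genes was 101 without a filter, 40 with the stricter filter, 555 at 1.5-fold and 8 at 3-fold. Centring on the reference genes shifted all differences by 0.04 and gave 275 higher and 82 lower genes. Of 320 list medians 309 moved by less than that yardstick, and 10 changed sign, all from sizes of 0.19 or less. Neither centring could move a median by as much as the yardstick, which serves here as a size and not as a median's error. The median of dendritic cell markers was 0.17 with rows averaged, that of negative regulators 0.04 with the stricter filter, and with centring that of lysosomal genes was -0.04 and that of reference genes -0.02. With the stricter filter the median of dendritic cell markers was -1.12, that of granulocyte markers -1.26, that of T and NK cell markers 2.02 and that of megakaryocyte and mast cell markers -0.63. T and NK cell markers were at 1.01 with the filter on days 1 and 2 alone and at 0.75 as a mean. Other means in place of medians were 0.23 for cell fusion, 0.69 for integrins, podosomes and actin, 0.63 for unconventional myosins and 0.23 for cytokine and growth factor receptors. Means also turned the sign for aldo-keto reductases (0.16), glycolysis (0.08), sterol genes (0.04) and reference genes (-0.04). The settings added after seeing the data moved neither the protease inhibitor median nor the day 5 counts by over 1.5 times. With 1 array per day no array could be left out and no value carries an error between cultures, and no paired analysis was possible because each group holds 1 sample.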

Other observations

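Small nucleolar RNA genes, which guide the chemical modification of ribosomal RNA, lay mostly below 0. Of 61 measured, 52 (85.2%) were below 0, against 47.9% of all measured genes. At least 2-fold lower were 4 (6.56%), against 0.556% of all measured genes, and 0 were higher. The median was -0.25 and the lowest difference was -1.20. The yardstick of 0.27 is the spread of 1 row and does not give the error of a median over 61 genes. Cytosolic ribosomal protein genes had 59 of 72 below 0 with 0 past 2-fold either way (median -0.09), mitochondrial ribosomal proteins a median of 0.00 over 71 genes, and proteasome subunits -0.09 over 37. Of 201 solute carrier genes, the membrane transporters of small molecules, 8 were higher (3.98%, against 2.46% of all measured genes) and 2 lower (0.995%, against 0.556%), shares near the background from which nothing is read (median 0.00), with Slc18a1 highest at 3.90. Among 57 Rab GTPases only Rab38 (3.34) passed 2-fold (1.75% higher, median 0.03), which is also near the background. The 25 kinesins, motors of which several serve mitosis, had a median of -0.40 with 0 past 2-fold. The families were chosen with earlier results known, and no explanation was tested.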
